A study of Penicillium oxalicum with 6 samples.

Results

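A set of 99 genes, of 9727 in all, had higher transcript levels in mycelium of Penicillium oxalicum that lacks the gene POX01387. A gene was taken when its lowest value in 3 delta POX01387 libraries was at least 10 FPKM and at least 2 times its highest value in 3 delta ku70 libraries. FPKM counts sequenced fragments relative to transcript length and library size, so levels of different genes can be set side by side. The rule also set aside 13 IDs by name, and 0 of these met both limits, so the exclusion removed no gene. The choice used the strain difference itself. All differences between the strains in these 99 genes are therefore given as descriptions, without a test.

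The mutant strain, delta POX01387, was compared with delta ku70, which the submitters name as its parental strain. By that account the mutant derives from a strain without ku70, although its sample titles name only POX01387. Mycelium of each strain was grown in medium MMM with 1.0% glucose for 24 h at 28 °C. About 1.0 g was then placed in fresh MMM with 2% Avicel, which is microcrystalline cellulose, and RNA was taken 24 h later. Each strain gave 3 libraries. The labels do not say whether replicates were separate cultures, or whether the mutant is 1 transformant. Consequences of losing POX01387, of the replaced locus and of any other difference between these 2 strains cannot be told apart.

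P. oxalicum is a filamentous fungus that secretes cellulases, xylanases and other enzymes that break down plant cell walls. In such fungi the transfer from glucose to cellulose relieves carbon catabolite repression and switches on genes for secreted hydrolases and sugar uptake, under activating and repressing transcription factors. A gene whose transcript is more abundant when another gene is missing may be a direct or an indirect target of that gene's product, and expression data of this kind do not separate these. The ku70 product belongs to the complex that joins broken DNA ends, and strains without it take up targeted gene replacements efficiently. The deposited tables pair no gene ID with a name or product, and 0 of the 9727 IDs were found in the RefSeq table of assembly ASM172317v3. Genes are therefore called by their POX numbers, and no role is given to any of them.

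The level of POX01387 followed the labels, at 0.02, 0 and 0 FPKM in delta POX01387 replicates 1 to 3, against 9.4, 6.89 and 6.14 FPKM in delta ku70 replicates 1 to 3. The depth in reads is unknown, because only FPKM values were used. Between 253 and 259 genes were listed at 0 in a delta POX01387 library and between 180 and 209 in a delta ku70 library. A library of each strain stood somewhat apart. Rank correlations across tested genes were 0.987 and 0.982 for delta POX01387 replicate 3 with replicates 1 and 2, which had 0.992 with each other. For delta ku70 replicate 1 they were 0.968 and 0.979 with replicates 2 and 3, which had 0.986 with each other.

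The 99 genes made up 1.02% of all genes, and 1.47% of the 6716 genes with at least 10 FPKM in all 3 mutant libraries. The same rule turned round, with the delta ku70 values high, was met by 259 genes, or 2.66%. A level limit of 5 FPKM would have admitted 109 genes. With no level limit except that the lowest mutant value be above 0, 140 genes met the 2 times limit. Since the rule fixes these counts, nothing about the genes is read from them. The ratio of strain means had a median of 3.56 over the members and ran between 2.19 and 28.9. It was under 3 for 22 members, between 3 and 4 for 44, between 4 and 5 for 10, between 5 and 10 for 20 and above 10 for 3. On the log2 scale the median ratio of means was 1.83. Over the same 99 members it was 1.82 without delta ku70 replicate 1 and 1.80 without delta POX01387 replicate 3. The members were chosen with these libraries included, so the small change is no check on the choice.

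Transcripts of the members were detected in the parental strain too. Their mean level had a median of 157.7 FPKM in delta POX01387 and 33.4 FPKM in delta ku70, beside medians over all genes of 25.3 FPKM in delta POX01387 and 28.8 FPKM in delta ku70. In delta ku70 the mean was under 10 FPKM for 16 members, between 10 and 100 FPKM for 61 and at least 100 FPKM for 22. Among the 1000 most abundant of the 9727 genes of a strain there were 49 members in delta POX01387 and 13 in delta ku70. The rule asks for at least 10 FPKM and a rise in the mutant, so the higher standing there is fixed by the choice. The medians over all genes include genes below that limit. The lowest mean in the parent was 3.72 FPKM, that of POX03038. The lowest single value was 2.41 FPKM, for POX01417 in delta ku70 replicate 1. Without known depth, how far such values lie from 0 cannot be told.

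**Figure D1:**
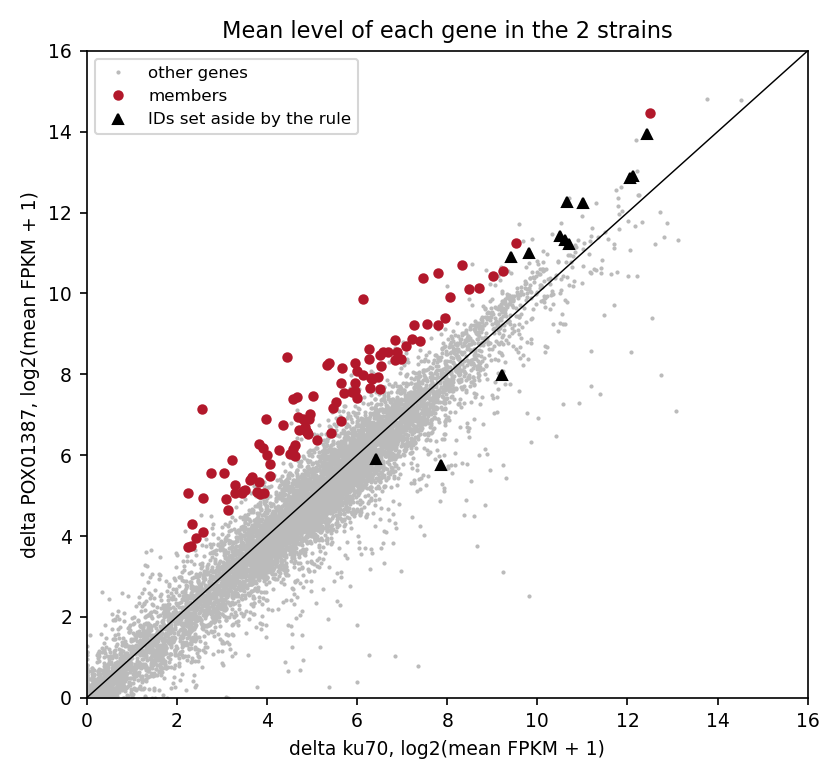
Mean level of each gene in delta POX01387 (vertical axis) against delta ku70 (horizontal axis), both as log2 of the mean FPKM plus 1, over 3 libraries per strain. The 99 members (red circles) lie above the line of equal level, as the rule requires. Their mean delta ku70 levels run between 3.72 and 5770 FPKM. Of the 13 IDs set aside (black triangles) 3 were lower in every mutant library, and POX06783, with a ratio of means of 3.01, lies as far above the line as some members.

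The 3 members with a ratio of means above 10 were POX06754, POX07269 and POX07270. POX06754 had 126.0, 163.2 and 134.0 FPKM in delta POX01387 replicates 1 to 3, against 2.70, 6.58 and 5.34 FPKM in delta ku70. Its mean was 28.9 times higher in the mutant, and its lowest mutant library was 19.2 times its highest parental one. The log2 difference was 4.65 ± 0.27 (SE of the limma fit), on the scale of log2(FPKM + 1). The gene numbered directly below it, POX06753, is not a member and was far more abundant, with 3394 ± 423 FPKM in delta POX01387 and 1467 ± 547 FPKM in delta ku70 (SD, n = 3 each). Whether reads of overlapping neighbours enter the value of POX06754 was not tested.

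POX07269 and POX07270 carry consecutive numbers and varied together among the mutant libraries. POX07269 had 442.4, 439.4 and 152.2 FPKM in delta POX01387 replicates 1 to 3, against 32.2, 19.6 and 10.6 FPKM in delta ku70. POX07270 had 1154, 1044 and 578.6 FPKM in delta POX01387, against 75.9, 69.1 and 63.5 FPKM in delta ku70. Both were lowest in replicate 3 of either strain. The ratios of means were 16.6 for POX07269 and 13.3 for POX07270. POX07269 had the widest relative spread of all members among the mutant libraries, with a coefficient of variation of 48.4%.

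POX01386, numbered directly below the deleted gene, was the fourth by ratio of means. It had 41.4, 22.7 and 34.0 FPKM in delta POX01387, against 4.29, 3.96 and 3.11 FPKM in delta ku70, a ratio of 8.63. Its lowest mutant library was 5.28 times its highest parental library. On the other side of the deleted gene, POX01388 had 12.18, 12.99 and 12.93 FPKM in delta POX01387, against 14.73, 14.99 and 18.29 FPKM in delta ku70, and is not a member. POX01390, also above it and not a member, had 106.4, 114.6 and 51.7 FPKM in delta POX01387, against 13.4, 57.8 and 24.4 FPKM in delta ku70. The strains overlapped in POX01390, and it was higher by 1.64 ± 0.54 on the log2 scale (SE; limma, adjusted p = 0.0438). That call was lost on leaving out delta POX01387 replicate 1 or 2 or delta ku70 replicate 1 or 3 (limma, adjusted p between 0.0901 and 0.125), and with no filter on low values (limma, adjusted p = 0.0508). An effect of the replaced locus on POX01386 was not tested.

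Next by ratio of means were POX07083 and POX07846, and POX05585 was the twelfth. POX07083 had 126.3, 111.3 and 118.6 FPKM in delta POX01387, against 10.6, 16.8 and 17.1 FPKM in delta ku70, a ratio of 8.003. POX07846 had 49.0, 40.7 and 48.1 FPKM in the mutant, against 6.13, 4.45 and 6.86 FPKM in the parent, a ratio of 7.90. POX05585 had 59.1, 55.2 and 59.7 FPKM in delta POX01387, against 8.74, 8.64 and 7.74 FPKM in delta ku70, a ratio of 6.93. The mutant libraries of these 3 genes lay within 1.5 times of each other. The remaining genes of the 12 with the highest ratios were POX07792, POX02495, POX07889, POX06396 and POX07791, with ratios between 7.05 and 7.67.

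**Figure D2:**
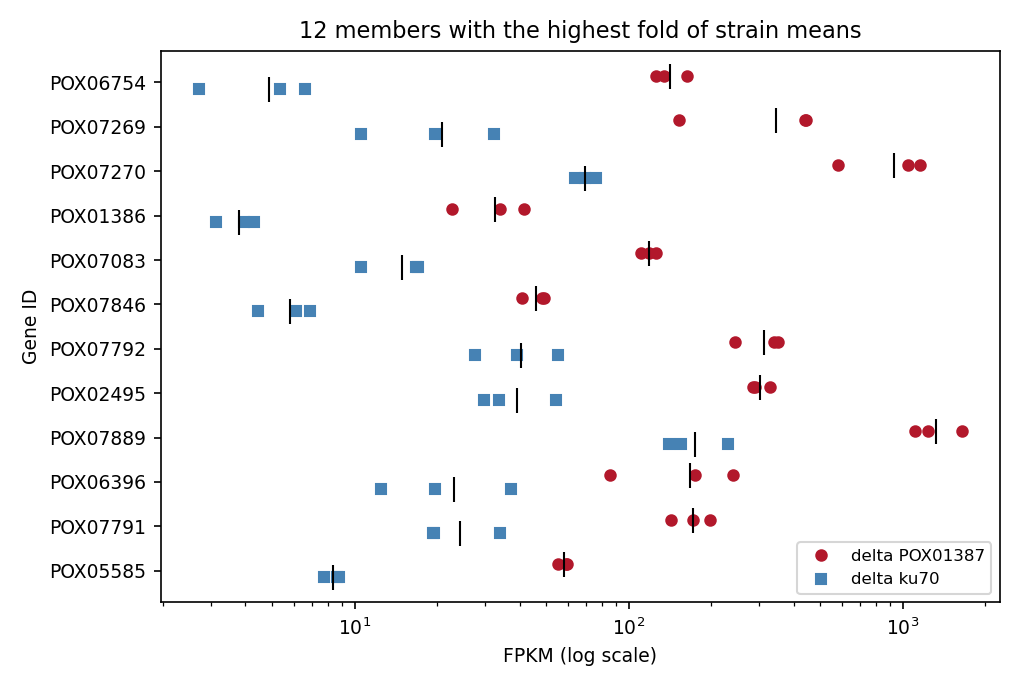
FPKM on a log axis in every library for the 12 members with the highest ratio of strain means, with delta POX01387 libraries as red circles above delta ku70 libraries as blue squares; black ticks mark the strain means of 3 libraries. All 3 mutant libraries lie to the right of all 3 parental ones, as the rule requires, and POX07269 and POX06396 show a mutant library well below the other two.

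By mean abundance POX04786 stood first among the members in both strains. It had 18626, 21473 and 27215 FPKM in delta POX01387 replicates 1 to 3, against 2342, 7643 and 7325 FPKM in delta ku70 replicates 1 to 3. It was the third most abundant gene in each mutant library, and it ranked 46, 5 and 8 in the parental libraries. The ratio of means was 3.89, and 2.998 when delta ku70 replicate 1 was left out. The log2 difference, 2.12 ± 0.49 (SE of the limma fit), was 1.49 with quantile normalization. POX04786 alone took 2.16% ± 0.45 of the summed FPKM in delta POX01387 and 0.571% ± 0.296 in delta ku70 (SD, n = 3 each).

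All 99 members together took 5.00% ± 0.32 of the summed FPKM in delta POX01387 and 1.36% ± 0.29 in delta ku70 (SD, n = 3 each). Without POX04786 the other 98 members took 2.84% ± 0.14 in delta POX01387 and 0.790% ± 0.024 in delta ku70. The spread of the parental share came largely from POX04786, since the 98 remaining genes took 0.801%, 0.808% and 0.762% in delta ku70 replicates 1 to 3.

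**Figure D3:**
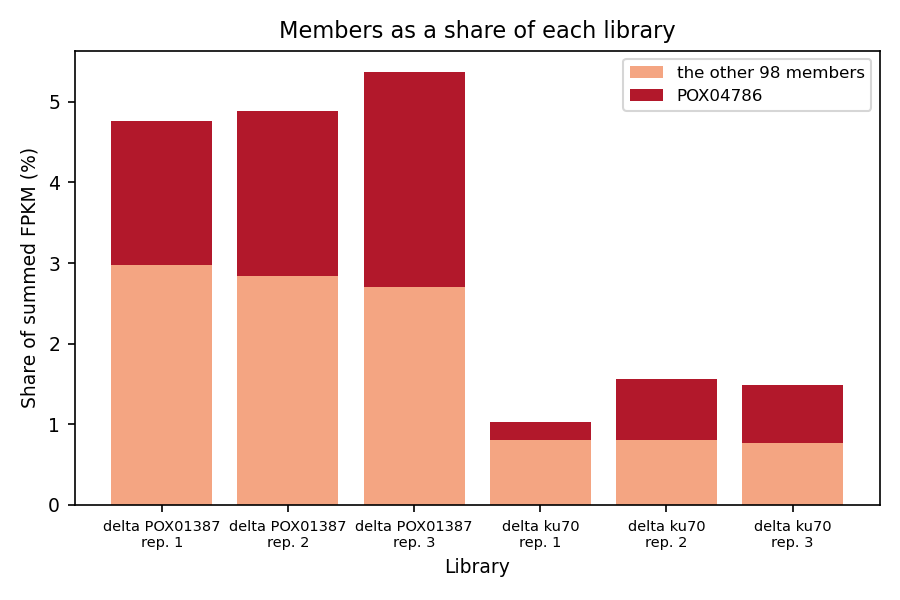
Share of the summed FPKM of each library taken by POX04786 (dark red) and by the other 98 members (light red), for 3 delta POX01387 and 3 delta ku70 libraries. The share of the 98 genes is close to even within each strain, while POX04786 is at 0.230% in delta ku70 replicate 1 and at 0.754% and 0.730% in replicates 2 and 3.

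After POX04786 the most abundant members in the mutant were POX07201, POX06345, POX02483 and POX08821. POX07201 had 2385, 2755 and 2166 FPKM in delta POX01387, against 929.2, 709.8 and 576.9 FPKM in delta ku70, a ratio of 3.30. POX06345 had 1625, 1640 and 1746 FPKM in delta POX01387, against 323.3, 331.2 and 310.2 FPKM in delta ku70, a ratio of 5.19. POX06345 was thus both abundant and steady, with coefficients of variation of 3.94% in delta POX01387 and 3.30% in delta ku70. POX08821 had 1524, 1835 and 989.9 FPKM in delta POX01387, against 262.5, 237.6 and 167.3 FPKM in delta ku70, a ratio of 6.52. POX02483 lay close to the 2 times limit. It had 1401, 1392 and 1712 FPKM in delta POX01387, against 694.4, 537.8 and 589.0 FPKM in delta ku70, a ratio of 2.47. The other 7 of the 12 most abundant members had means between 670.4 FPKM for POX01238 and 1371 FPKM for POX04524 in the mutant.

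Spread within a strain was uneven among the members. The coefficient of variation had a median of 11.9% among the delta POX01387 libraries and 17.6% among the delta ku70 libraries. Over all 6716 genes with at least 10 FPKM in every mutant library these medians were 8.58% in delta POX01387 and 9.51% in delta ku70. The 6716 genes include the members and were not matched to them in delta ku70 level. The rule used the same values, so no trait of the members is read from these medians. All 3 values lay within 1.5 times of each other for 83 members in the mutant and for 58 members in the parent. The same count is not given for other genes, so it is not read as a trait of the members. POX06444 was the steadiest in the mutant, at 594.8, 593.3 and 586.8 FPKM in delta POX01387, against 253.1, 231.8 and 177.2 FPKM in delta ku70.

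In delta ku70, 11 members were low in replicate 1, defined as more than 1.5 times below the lower of replicates 2 and 3. That is 11.1% of members, beside 2.71% of the 6617 other genes at 10 FPKM or more in every mutant library. Those other genes include the IDs set aside. The rule used these same parental values, so no trait of the members is read from the shares. Of the 11 low members POX08990 was the most extreme. It had 291.0, 241.4 and 271.8 FPKM in delta POX01387, against 15.5, 92.1 and 81.5 FPKM in delta ku70 replicates 1 to 3. POX05540 had 1025, 838.2 and 1021 FPKM in delta POX01387, against 118.4, 298.9 and 378.0 FPKM in delta ku70. POX03005 had 340.4, 318.3 and 333.4 FPKM in delta POX01387, against 38.5, 120.1 and 69.6 FPKM in delta ku70. The mutant libraries were close together in these 3 genes, and the spread lay in the parent. The other low members were POX01219, POX01417, POX02423, POX04786, POX04920, POX05929, POX06754 and POX07083. Measured against delta ku70 replicates 2 and 3 alone, the mutant mean of the 11 genes was between 2.39 and 23.7 times higher.

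The 13 IDs set aside by the rule showed this parental pattern throughout. All 13 were lowest in delta ku70 replicate 1, as were 30.2% of non-member genes at 10 FPKM or more in every mutant library. By the 1.5 times definition 12 of the 13 were low there, beside 2.71% of those genes. Of the 13, 9 were higher in every delta POX01387 library than in any delta ku70 library and 3 were lower in every one. The share of all genes separated in this way is not given, so nothing is read from these 2 counts. The closest to the limits was POX06783, with 4685, 4556 and 5366 FPKM in delta POX01387 and 513.8, 2364 and 1981 FPKM in delta ku70, so that its lowest mutant library was 1.93 times its highest parental one. POX05587 had 13590, 14819 and 18531 FPKM in delta POX01387, against 2040, 7589 and 6872 FPKM in delta ku70.

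Other members were low in delta POX01387 replicate 3. By the same 1.5 times definition POX06396, POX07269, POX07270 and POX08821 were low in that library, 4.04% of members beside 3.35% of other genes. POX06396 had 174.9, 240.6 and 85.2 FPKM in delta POX01387, against 37.1, 19.6 and 12.5 FPKM in delta ku70. Both POX06396 and POX07269 were also high in delta ku70 replicate 1 and low in delta ku70 replicate 3. Replicate 3 held the highest mutant value for 26 of the 99 members, POX03464, POX03465 and POX02484 among them, and for 37.1% of other genes. By the 1.5 times definition 1 member, POX03464, was high there. POX02484 had 146.5, 223.7 and 288.8 FPKM in delta POX01387, against 55.8, 60.7 and 67.3 FPKM in delta ku70.

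**Figure D4:**
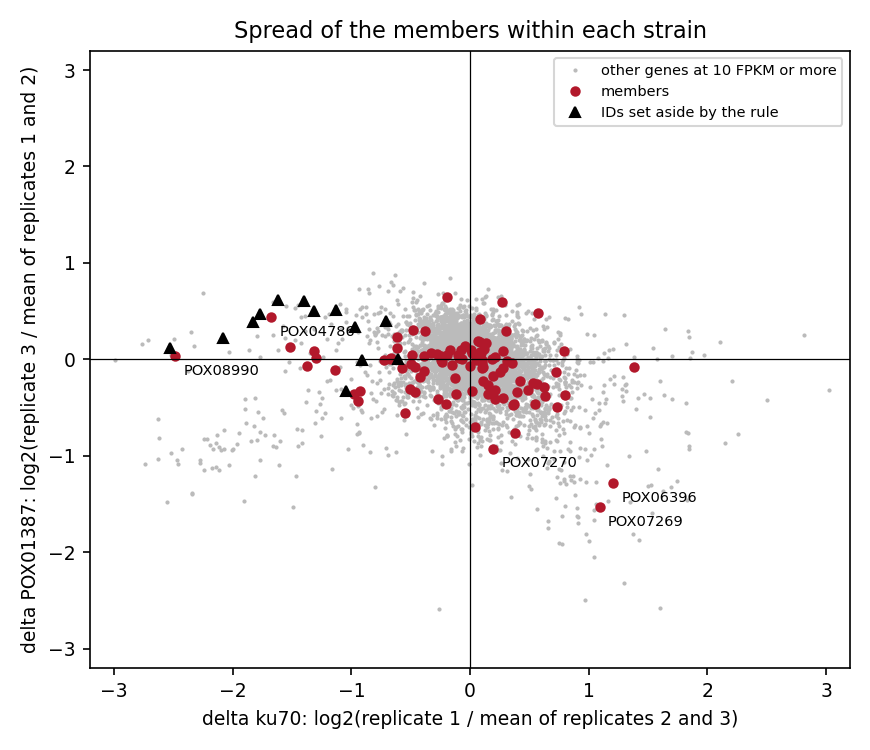
For each gene, log2 of delta POX01387 replicate 3 over the mean of replicates 1 and 2 (vertical axis) against log2 of delta ku70 replicate 1 over the mean of replicates 2 and 3 (horizontal axis), with 0.01 FPKM added to each value. Members are red, the 13 IDs set aside are black and other genes at 10 FPKM or more in every mutant library are grey (7 of them lie outside the axes). POX04786 and POX08990 lie far left with the IDs set aside, while POX07269 and POX06396 lie at lower right.

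The members were spread over the whole range of ID numbers, from POX00105 to POX09413. Between 6 and 15 members fell into each complete block of 1000 numbers, and the widest stretch without one was 620 numbers, between POX04920 and POX05540. ID order was not part of the rule. It is taken as an order only, and genome positions were not used. Of the 99 members, 26 stood in 13 pairs of consecutive numbers, 36 had another member within 5 numbers, and 0 runs of 3 or more members were found. No count for other sets of 99 genes stands beside these, so no clustering is read from them.

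The pairs differed in strength and in how alike their partners were. Besides POX07269 with POX07270, the pair POX07791 and POX07792 had high ratios. POX07791 had 171.6, 198.8 and 143.1 FPKM in delta POX01387, against 33.9, 19.4 and 19.5 FPKM in delta ku70, a ratio of 7.05. POX07792 had 339.9, 349.5 and 245.1 FPKM in delta POX01387, against 55.3, 39.1 and 27.4 FPKM in delta ku70, a ratio of 7.67. The partners thus had nearly equal ratios and the same order of the mutant libraries.

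POX07888 and POX07889 had unequal levels. POX07888 had 125.5, 130.3 and 111.9 FPKM in delta POX01387, against 23.3, 29.1 and 21.7 FPKM in delta ku70, a ratio of 4.97. POX07889 had 1640, 1237 and 1106 FPKM in delta POX01387, against 229.4, 154.8 and 140.8 FPKM in delta ku70, a ratio of 7.58. In the mutant the level of POX07889 was 10.8 times that of POX07888, the widest gap of the 13 pairs.

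POX03464 and POX03465 had ratios of 3.97 and 3.91. POX03464 had 319.3, 323.2 and 486.2 FPKM in delta POX01387, against 107.0, 77.6 and 99.7 FPKM in delta ku70. POX03465 had 532.8, 523.0 and 736.7 FPKM in delta POX01387, against 195.7, 124.3 and 139.0 FPKM in delta ku70. Both were highest in delta POX01387 replicate 3. The fifth pair by its lower ratio, POX07633 and POX07634, had ratios of 3.41 and 3.56.

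Whether partners moved together between replicates is a measure that the rule did not use. Partners had their highest mutant value in the same library in 8 of 13 pairs, or 61.5%, beside 40.5% of 4969 other pairs of consecutive IDs at 10 FPKM or more in every mutant library. For the lowest mutant value this was 7 of 13 pairs, or 53.8%, beside 39.7%. Among the delta ku70 libraries the partners shared the highest library in 7 pairs and the lowest in 7, beside 41.1% and 40.6% of the other pairs. With 13 pairs these shares are coarse, and no difference from other consecutive genes was tested.

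Genes numbered next to a member were taken without regard to their own values, except that members and IDs set aside were left out. Genes that met the rule are thus missing from the neighbours, while the 99 members count among all tested genes. There were 155 such neighbours at 1 FPKM or more on average. In limma, at an adjusted p under 0.05, 41 of them were higher in delta POX01387 and 28 lower. The shares are 26.5% higher and 18.1% lower, beside 15.3% higher and 32.6% lower over all 8925 tested genes. The median log2 fold change was 0.06 for the neighbours and -0.15 for all tested genes. The 28 lower neighbours include the deleted gene itself, which follows POX01386. With median-of-ratios scaling, which moves the median of all tested genes to 0.01, the shares higher were 38.1% of neighbours and 23.7% of all genes. Farther out, 17.3% of the 573 genes numbered 2 to 5 away from a member were higher and 28.8% were lower. A change of at least 1 on the log2 scale, past the threshold, was found upwards for 13 neighbours, or 8.39%, beside 3.6% of all tested genes, and downwards for 7, or 4.52%, beside 6.8%. The difference between neighbours and other genes was not itself tested. The part of reads shared between overlapping genes in these counts was not tested either.

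**Figure D5:**
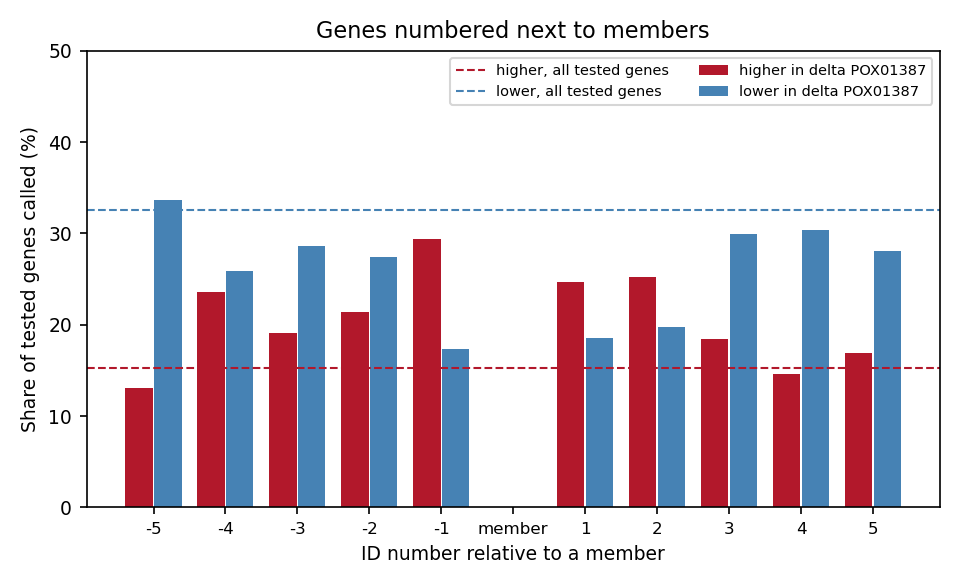
Share of tested genes called higher (red) or lower (blue) in delta POX01387 by limma, at 1 to 5 ID numbers below and above a member, leaving out members and IDs set aside; dashed lines give the shares over all 8925 tested genes. The higher share is 29.3% directly below and 24.7% directly above a member and 13.04% at 5 numbers below.

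Several neighbours, picked here after their values were seen, extended a member to a longer stretch. POX01218 had 2558, 2102 and 2861 FPKM in delta POX01387, against 395.8, 951.4 and 1124 FPKM in delta ku70, and rose by 1.73 ± 0.39 on the log2 scale (SE; limma, adjusted p = 0.0119). Like the member POX01219 beside it, it was lowest in delta ku70 replicate 1. POX08822, beside the member POX08821, had 305.9, 285.9 and 158.1 FPKM in delta POX01387, against 110.0, 30.7 and 30.6 FPKM in delta ku70, and rose by 2.33 ± 0.53 (SE; limma, adjusted p = 0.0122). POX08139, which lies between the members POX08138 and POX08140, had 93.3, 78.0 and 97.0 FPKM in delta POX01387, against 46.7, 42.0 and 49.6 FPKM in delta ku70, and rose by 0.94 ± 0.11 (SE; limma, adjusted p = 0.00137). POX07847, which follows the pair POX07845 and POX07846, rose by 1.046 ± 0.087 (SE; limma, adjusted p = 0.000446). POX04525, which follows the pair POX04523 and POX04524, rose by 1.00 ± 0.09 (SE; limma, adjusted p = 0.000614).

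Some neighbours went the other way, and these too were picked after their values were seen. POX06834, directly below the member POX06835, had 3.44, 3.79 and 2.99 FPKM in delta POX01387, against 30.8, 24.0 and 24.7 FPKM in delta ku70, and fell by 2.64 ± 0.13 on the log2 scale (SE; limma, adjusted p = 7.23e-05). POX06835 itself had 401.3, 363.7 and 365.2 FPKM in delta POX01387, against 117.3, 124.7 and 109.8 FPKM in delta ku70. POX08137 fell by 1.95 ± 0.12 (SE; limma, adjusted p = 0.00013) and stands directly below the member POX08138. A member and its neighbour could therefore differ in direction at a distance of 1 ID number.

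The limits of the rule cut through a continuous range of values. Just inside the 10 FPKM limit were POX03038, POX06847 and POX03233, whose lowest mutant values were 10.9, 11.3 and 13.7 FPKM. Just outside it were POX03187, POX08823 and POX09405, which met the 2 times limit with lowest mutant values of 9.86, 9.41 and 9.07 FPKM. The lowest mutant library was 2.01 times the highest parental one in POX02483, POX04449 and POX04895. Just outside, POX03209, POX06398 and POX08579 were at 1.98, 1.97 and 1.97 times. POX08823 follows POX08822 and POX08821, so that 3 consecutive IDs had higher means in the mutant and 1 of them is a member.

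Leaving out a library before applying the rule shows how far each library decides membership. With delta POX01387 replicate 3 left out, 177 genes were chosen from the 5 remaining libraries, and the left-out library met the limits for 99 of them, or 55.9%. Without delta ku70 replicate 2 the rule chose 164 genes, of which 60.4% were members, and without delta ku70 replicate 1 it chose 143, of which 69.2% were members. The other 3 libraries mattered less, with 103 genes without delta POX01387 replicate 1, 109 without delta POX01387 replicate 2 and 104 without delta ku70 replicate 3. Membership near the 2 times limit thus turned mostly on 3 of the 6 libraries.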

How the data were processed

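Messenger RNA of mycelium was sequenced on the BGISEQ-500 platform, per the labels' protocols. Tools listed in the submitters' processing notes, without their roles, are RSEM 1.2.12, Bowtie2 2.1.0, BWA 0.7.10-r789 and DESeq2. The labels and headers state no genome build, annotation or filter. The authors deposited 1 table of FPKM values per library, per the file headers. No counts were used, so the depth is unknown and no counting intervals are given.

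Groups and replicate numbers came from the sample titles. The rule was applied to the FPKM as deposited, and ratios are of mean FPKM. For log2 differences, SEs and calls on genes that are not members, log2(FPKM + 1) was fitted with limma 3.58.1 in R 4.3.3 (trend, two-sided, Benjamini-Hochberg adjustment, threshold 0.05) over the 8925 genes averaging 1 FPKM or more. All 99 members were among them, and 802 genes were not tested. The pseudocount of 1 understates changes of weak genes. The procedure was tested on simulated data.

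Members, lists and tests were chosen with earlier results of these data known. Genes were named by position in the ranking by ratio, abundance and spread, by consecutive IDs, by nearness to the limits or to POX01387; others are said to be picked after their values were seen. Since separate cultures are not stated, p-values reflect only the variation among these libraries, possibly technical. Alternatives were other scalings, limits, pseudocounts and filters, no trend, the replicate block, and each library left out.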

Additional observations from a re-analysis of the deposited data

How the results depend on the processing

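The number of genes meeting the rule was 252 at 1.5 times and 28 at 3 times in place of 2 times, and between 103 and 177 with 1 library left out. Median-of-ratios scaling gave 127 genes, with all 99 members among them, equal sums gave 94, and quantile normalization gave 119, with 95 of the members among them. Quantile normalization also lowered the log2 difference of POX04786 to 1.49, against 2.12. Over the same 99 members, the median log2 ratio of means, 1.83, was 2.00 with median-of-ratios scaling and 1.93 with quantile normalization. With this list held fixed, it was between 1.77 and 1.84 when a library was dropped. The list was chosen with every library included, so this narrow range is no check on the choice. Over the genes chosen anew it was 1.33 at 1.5 times and 2.51 at 3 times, and these values follow from the limit itself. Members in runs of consecutive IDs, pairs or longer, numbered 50 at 1.5 times and 6 at 3 times, against 26, and between 26 and 44 with 1 library left out. Over all tested genes, calls higher in delta POX01387 numbered 1366, against 2117 with median-of-ratios scaling and between 830 and 1345 with 1 library left out (830 without delta POX01387 replicate 1, 898 without replicate 2, and 868 without delta ku70 replicate 3). Median-of-ratios scaling split the calls into 2117 higher and 1972 lower, and quantile normalization into 1909 higher and 1961 lower, against 1366 and 2906. Neighbours of members called higher ranged between 31 and 59, against 41, and their share exceeded that of all tested genes under each of the 15 alternatives fitted. POX01391, near the deleted gene and not called, lay between -0.13 and 0.36 on the log2 scale with a library left out, against 0.12, and was negative without delta ku70 replicate 1; the cause was not tested. The labels do not say that replicate numbers pair the samples. The correlation of deviations from the strain mean was 0.088, 0.27 and 0.54 for numbers 1, 2 and 3. For unlike numbers it was 0.097 between delta ku70 replicate 1 and delta POX01387 replicate 2. All other unlike numbers gave negative values, between -0.522 and -0.0102. Whether the replicates are paired was not tested. With the replicate block 46 neighbours were called higher and 33 lower, and 1534 and 3051 of all tested genes. Count models were not run, since the values are FPKM. Without known depth, weak genes such as POX03038 carry an unknown counting error.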
